A study of Homo sapiens with 24 samples.

Results

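The messenger RNA of 8 genes of cholesterol synthesis and its control was followed in IMR90 cells, a line of normal human lung fibroblasts, during senescence driven by the RAS oncogene. The 8 genes, HMGCS1, IDI1, FDFT1, SQLE, LSS, DHCR7, INSIG1 and SREBF2, were named as a list and taken by Entrez Gene ID from count tables that hold 25702 genes. All 8 were found, and all 8 were among the 13356 genes that passed the filter on low counts and were tested. Every cell, controls included, carried a retroviral ER:HRAS(G12V), a mutant HRAS fused to an oestrogen receptor domain that is switched on by 4-hydroxytamoxifen (4OHT), and was at passage 23-28. There were 4 groups of 6 libraries, labelled as biological replicates. The growing group carried the MSCV vector with no agent, the shHMGA1 group carried MSCV miR30 shHMGA1 with no agent, the RIS (RAS-induced senescence) group carried the MSCV vector with 4OHT for 6 days, and the RIS+shHMGA1 group carried MSCV miR30 shHMGA1 with 4OHT for 6 days. The hairpin is the only one used, so its effect rests on 1 sequence, and the labels do not say what a replicate number stands for.

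Cholesterol is built from acetyl-CoA through the mevalonate pathway, which first makes isoprenoid units, joins them into squalene, and then closes and trims the sterol rings. The genes of this pathway are controlled together by SREBP2, the protein of SREBF2, a transcription factor held in the endoplasmic reticulum. When membrane sterol falls, SREBP2 is carried to the Golgi and cleaved, and when sterol is plentiful the INSIG proteins hold it back. A falling sterol supply is therefore known for raising the whole set of enzymes and INSIG1 at once, while excess sterol turns on the efflux pumps through the LXR receptors.

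The 8 genes were not all called with RAS, and their log2 fold changes went in both directions. Whether sterol supply took part was not tested. INSIG1, IDI1 and FDFT1 rose with RAS in hairpin cells, by 1.20, 0.95 and 1.12 on the log2 scale. SREBF2 was lower by a log2 fold change of -0.62 in the same comparison, which missed the threshold. HMGCS1 and SQLE were not called with RAS in either background, and both stood higher in replicates 5 and 6 than in replicates 1 to 4 of every group. LSS and DHCR7 varied alongside SREBF2.

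SREBP2 is known to bind its targets close to the transcription start together with the factors of the CCAAT and GC boxes. Sequences before that start are therefore shown for 4 of the genes. Each is the 250 bases that end just before the gene's outermost annotated start in GENCODE, in the GRCh37 (hg19) build that the files use, read 5′ to 3′ on the gene's own strand, so that no transcript of the gene itself lies inside. Capitals mark TCACNCCAC (a sterol regulatory element-like word), ATTGG (the CCAAT box) or GGGCGG (the GC box), each searched on both strands, with GC boxes allowed to overlap. The window of INSIG1 also holds an exon of the non-coding RNA INSIG1-DT, and that of SREBF2 an exon of SREBF2-AS1.
HMGCS1, chr5:43313615-43313864, minus strand: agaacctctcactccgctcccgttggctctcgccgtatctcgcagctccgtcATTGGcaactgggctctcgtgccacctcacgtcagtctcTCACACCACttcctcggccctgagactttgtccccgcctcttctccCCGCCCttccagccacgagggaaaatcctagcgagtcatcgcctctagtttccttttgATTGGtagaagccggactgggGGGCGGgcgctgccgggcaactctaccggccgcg
SREBF2, chr22:42228859-42229108, plus strand: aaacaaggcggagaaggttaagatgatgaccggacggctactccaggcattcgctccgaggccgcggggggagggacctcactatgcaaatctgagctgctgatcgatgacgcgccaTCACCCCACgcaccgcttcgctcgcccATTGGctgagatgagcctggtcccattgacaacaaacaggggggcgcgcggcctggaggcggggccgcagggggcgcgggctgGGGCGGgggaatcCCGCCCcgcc
INSIG1, chr7:155089236-155089485, plus strand: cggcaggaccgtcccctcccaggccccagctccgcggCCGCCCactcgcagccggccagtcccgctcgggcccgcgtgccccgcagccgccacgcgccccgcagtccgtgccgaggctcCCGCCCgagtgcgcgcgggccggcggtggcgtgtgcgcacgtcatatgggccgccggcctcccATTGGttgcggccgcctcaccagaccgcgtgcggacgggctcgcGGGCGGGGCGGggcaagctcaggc
IDI1, chr10:1095060-1095309, minus strand: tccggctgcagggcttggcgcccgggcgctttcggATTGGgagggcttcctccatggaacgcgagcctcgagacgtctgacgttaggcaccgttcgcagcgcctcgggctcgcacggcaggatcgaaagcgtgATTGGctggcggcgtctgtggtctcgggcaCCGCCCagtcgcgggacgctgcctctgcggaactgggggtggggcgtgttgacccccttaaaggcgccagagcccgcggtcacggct

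The sterol regulatory element-like word was present in the windows of HMGCS1, 159 to 151 bases before the start, and SREBF2, 133 to 125 bases before it. It was not among the letters of the INSIG1 and IDI1 windows. The windows of LSS and DHCR7 were also searched and are not shown, and neither held it. Those of FDFT1 and SQLE are not reported here. The 4 sequences shown thus include each window reported here that held this word. Over the same window of 19869 protein-coding genes, 1.04% held this word, 33.2% held a CCAAT box and 49.1% held a GC box. HMGCS1 and IDI1 each held 2 CCAAT boxes, and SREBF2 and INSIG1 each held 1. LSS held 2 and DHCR7 held 0. These matches describe letters only and were not tested as binding sites.

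A pair of libraries went against their labels, and the comparisons of the 8 genes that use them are given with and without them. The library labelled growing replicate 4 had 3.73 CPM (counts scaled to library size) of MKI67, a proliferation marker, against 87.6 to 152 in the other 5 growing libraries, and 542 CPM of the cytokine IL1A against 18.3 to 39.9. The library labelled RIS replicate 2 had 141 CPM of MKI67 against 3.16 to 6.85 in the other 5 RIS libraries, and 24.9 CPM of IL1A against 407 to 553. The targeted gene, HMGA1, matched the hairpin labels in every library, at 54.4 to 262 CPM in hairpin libraries and 639 to 861 CPM in vector libraries. Total counts ran from 8698070 to 23103424 per library, and the lowest count of any of the 8 genes in any library was 152. All 9 fibroblast markers were present, their summed level ranging from 5187 to 40297 CPM in growing, 14249 to 20247 CPM in shHMGA1, 5720 to 26911 CPM in RIS and 4535 to 5910 CPM in RIS+shHMGA1 libraries. This sum falls with RAS, mostly through collagen genes, beside every RAS result below, and its part in them was not tested. Of the 10 markers of other cell types, 9 stayed between 0 and 1.27 CPM in every library, and CD68, also a lysosomal gene of fibroblasts, ran from 40.2 to 105 CPM. CPM values here are scaled by TMM factors, and in bulk RNA fewer cells expressing a gene and less RNA per cell cannot be told apart.

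The effect of RAS is seen most cleanly in the hairpin cells, where neither of those libraries takes part. INSIG1 (Entrez 3638, chr7:155089486-155101945) codes for the endoplasmic reticulum protein that retains SREBP2 and is itself a target of SREBP2. Its level was 41.3, 44.5 and 62.2 CPM (lowest, median and highest of 6 libraries) in shHMGA1 and 94.2, 108 and 130.4 CPM in RIS+shHMGA1. The groups did not overlap. The log2 fold change was 1.20 ± 0.32 (SE), a 2.30-fold rise, with adjusted p = 0.00332 by edgeR's quasi-likelihood test, for which a call required an adjusted p under 0.01 and a log2 fold change over 0.58 in size. In vector cells INSIG1 was 27.4, 33.7 and 75.6 CPM in the other 5 growing libraries and 89.7, 111 and 122 CPM in the other 5 RIS libraries, again without overlap. The library labelled growing replicate 4 had 117 CPM and the library labelled RIS replicate 2 had 25.3 CPM, each inside the range of the opposite group or just outside it. The log2 fold change in vector cells was 0.66 ± 0.32 (adjusted p = 0.149) with all libraries and 1.17 ± 0.22 (adjusted p = 7.2e-05) without those libraries.

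FDFT1 (Entrez 2222) makes squalene synthase, which joins a pair of farnesyl diphosphates in the first step committed to sterols. It stood at 124, 145 and 165 CPM in shHMGA1 and at 286, 316 and 327 CPM in RIS+shHMGA1, with every senescent library above every growing one. The log2 fold change was 1.12 ± 0.24 (adjusted p = 0.000706), a 2.17-fold rise. In vector cells the other 5 growing libraries ranged from 87.2 to 136 CPM around a median of 114, and the other 5 RIS libraries from 198 to 249 CPM around 232. FDFT1 reached 298 CPM in the library labelled growing replicate 4, and the library labelled RIS replicate 2 fell to 95.9 CPM, so that each lay on the side of the opposite group. The log2 fold change was 0.54 ± 0.24 (adjusted p = 0.113) with all 24 libraries and 1.04 ± 0.11 (adjusted p = 1.68e-08) with 22.

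IDI1 (Entrez 3422, chr10:1085092-1095059, minus strand) makes the isomerase that balances the 2 isoprenoid building blocks. It was 71.3, 78.3 and 84.3 CPM in shHMGA1 and 129.8, 154 and 165 CPM in RIS+shHMGA1, again without overlap. This was a 1.94-fold rise, with a log2 fold change of 0.95 ± 0.23 (adjusted p = 0.00187). In vector cells it was 34.5, 48.8 and 80.5 CPM in the other 5 growing libraries. In the other 5 RIS libraries it was 73.5, 97.7 and 115 CPM, so the groups overlapped. In the library labelled growing replicate 4 it was 122 CPM, and the library labelled RIS replicate 2 had 41.7 CPM. The log2 fold change was 0.41 ± 0.23 (adjusted p = 0.225) with all libraries and 0.82 ± 0.16 (adjusted p = 8.16e-05) without those libraries. IDI1 has 3 annotated pseudogenes that could share its reads. An exon of the opposite-strand IDI2-AS1 overlaps IDI1, as unnamed opposite-strand genes overlap HMGCS1 (1 gene) and LSS (2 genes), and the strand setting of the counting is not given in the sources used here.

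**Figure D1:**
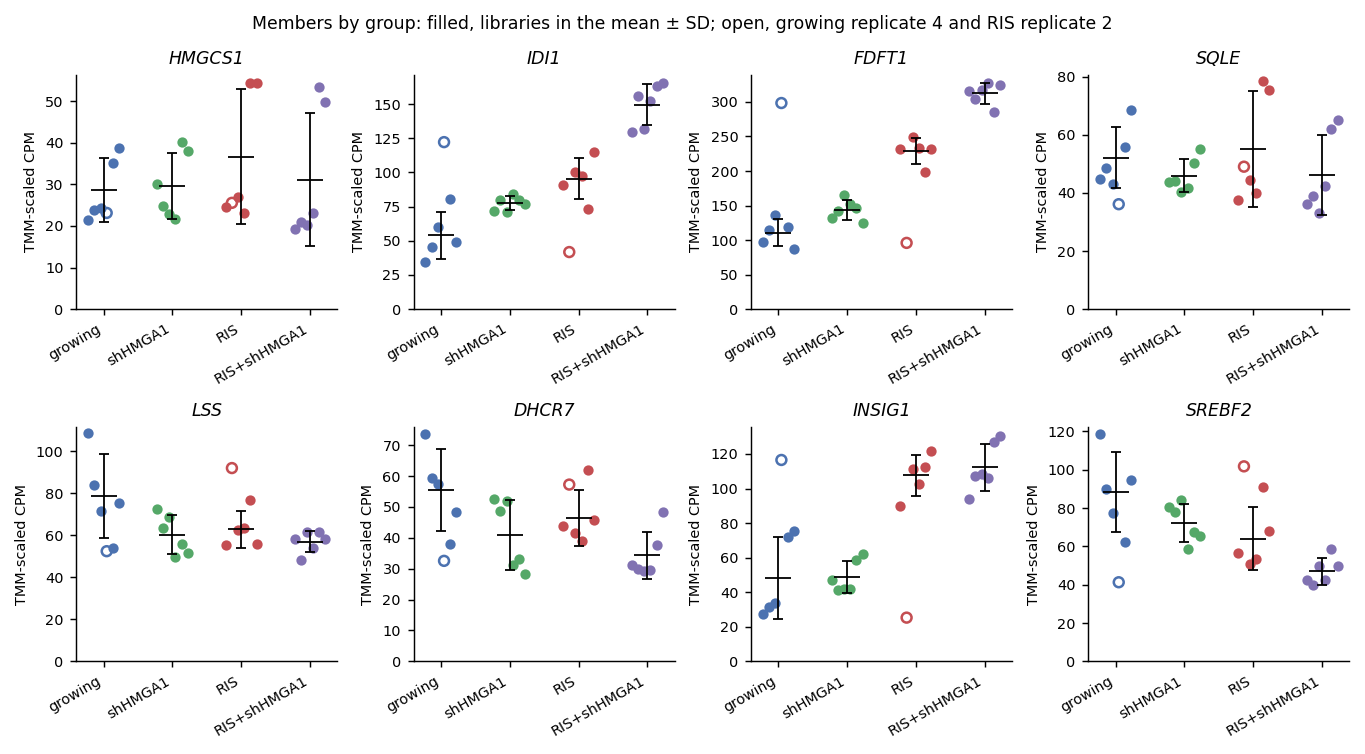
TMM-scaled CPM (vertical axis, from 0) of each of the 8 genes in every library of the 4 groups, with the mean and SD of the filled points, and with the libraries labelled growing replicate 4 and RIS replicate 2 open and left out of the mean. INSIG1, FDFT1 and IDI1 lie higher in RIS+shHMGA1 than in shHMGA1 without overlap, and the open points of FDFT1, at 298 and 95.9 CPM, lie on the side of the opposite group.

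In RIS+shHMGA1 against shHMGA1, 3 of the 8 genes were therefore called higher and 0 lower. Of the 13356 genes tested, 19.6% were called higher and 19.5% lower. The 8 were chosen with earlier results of these data known, so the shares of them called are only described. An unadjusted p under 0.05 was found for 4 of the 8 and for 9004 genes in all. How many of all genes had groups without overlap was not counted in any comparison, so such separation is only described. Without the libraries in doubt, which changes the shared estimate of spread but not the samples compared, 3 were called higher and 1 lower, against 22.5% and 21.9% of 13416 genes. In RIS against growing, edgeR called 0 of the 8 and 0% of all genes tested, with an unadjusted p under 0.05 for 2 of the 8 and 4407 genes in all. DESeq2 called 0 of the 8 and 827 genes. Without the libraries in doubt the same 3 genes, INSIG1, FDFT1 and IDI1, were called higher in RIS and none of the other 5 was called lower, against 19.2% of genes called higher and 20.5% called lower. The median log2 fold change over the 8 was 0.04 in hairpin cells, against -0.02 over all genes tested.

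SREBF2 (Entrez 6721, chr22:42229109-42303310) moved opposite to these 3 genes. It was 58.5, 72.8 and 84.2 CPM in shHMGA1 and 39.6, 46.0 and 58.6 CPM in RIS+shHMGA1, so that the ranges met only at 58.5 to 58.6 CPM and all 6 RIS+shHMGA1 libraries lay below the shHMGA1 median. The log2 fold change was -0.62 ± 0.20, with adjusted p = 0.0118 over 24 libraries and 0.000926 over 22. Over all 24 libraries DESeq2 called it lower (-0.60, adjusted p = 0.00937), so the call depended on the model as well as on the libraries in doubt. In vector cells it was 62.1, 90.0 and 118 CPM in the other 5 growing libraries and 50.9, 56.3 and 91.2 CPM in the other 5 RIS libraries. SREBF2 in the library labelled growing replicate 4 was at 41.3 CPM, below every RIS library, and the library labelled RIS replicate 2 had 102 CPM. The difference was -0.20 ± 0.20 (adjusted p = 0.501) with all libraries and -0.47 ± 0.16 (adjusted p = 0.0163) without them, and it was called in neither. SREBF2-AS1 overlaps an exon of SREBF2 on the opposite strand.

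LSS (Entrez 4047, chr21:47608055-47648738, minus strand) closes the first sterol ring system, and DHCR7 (Entrez 1717, chr11:71139239-71163914, minus strand) carries out the last reduction to cholesterol. Neither was called with RAS in either background. LSS was 49.8, 59.6 and 72.7 CPM in shHMGA1 and 48.5, 58.3 and 61.8 CPM in RIS+shHMGA1, a log2 fold change of -0.08 ± 0.16 (adjusted p = 0.659). DHCR7 was 28.3, 40.9 and 52.5 CPM in shHMGA1 and 29.1, 30.7 and 48.4 CPM in RIS+shHMGA1, a log2 fold change of -0.25 ± 0.20 (adjusted p = 0.266). The groups overlapped for both genes. In vector cells LSS had a log2 fold change of -0.14 ± 0.16 (adjusted p = 0.558) with all libraries and -0.33 ± 0.14 (adjusted p = 0.0521) without those in doubt. DHCR7 had -0.10 ± 0.20 (adjusted p = 0.744) and -0.25 ± 0.19 (adjusted p = 0.255).

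HMGCS1 (Entrez 3157, chr5:43287572-43313614, minus strand) makes HMG-CoA at the entry of the pathway, and SQLE (Entrez 6713) makes the epoxidase that oxidises squalene. Between shHMGA1 and RIS+shHMGA1 HMGCS1 differed by 0.07 ± 0.29 on the log2 scale (adjusted p = 0.844) and SQLE by 0.01 ± 0.20 (adjusted p = 0.964), differences smaller than their errors. In RIS against growing HMGCS1 differed by 0.33 ± 0.29 (adjusted p = 0.433) with all libraries and 0.36 ± 0.30 (adjusted p = 0.302) without those in doubt, and SQLE by 0.13 ± 0.20 (adjusted p = 0.66) and 0.09 ± 0.21 (adjusted p = 0.735). Much of their spread lay inside the groups and followed the replicate number. HMGCS1 was 35.2 and 38.7 CPM in growing replicates 5 and 6 and 21.5 to 24.3 CPM in growing replicates 1 to 4. In shHMGA1 it was 40.2 and 38.2 CPM against 21.8 to 30.2 CPM.

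In RIS, HMGCS1 was 54.4 and 54.5 CPM in replicates 5 and 6 against 23.0 to 27.0 CPM in replicates 1 to 4. In RIS+shHMGA1 it was 53.6 and 49.8 CPM against 19.3 to 23.1 CPM. Replicates 5 and 6 thus stood above the other 4 libraries in 4 of 4 groups. The library labelled growing replicate 4, with 23.1 CPM, and the library labelled RIS replicate 2, with 25.6 CPM, were not apart from replicates 1 to 4 of either state.

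SQLE had the same order. It was 55.9 and 68.7 CPM in growing replicates 5 and 6 against 36.1 to 48.5 CPM in replicates 1 to 4, and 50.3 and 55.2 CPM against 40.2 to 44.3 CPM in shHMGA1. In RIS it was 78.5 and 75.4 CPM against 37.6 to 49.1 CPM, and in RIS+shHMGA1 62.1 and 65.3 CPM against 33.0 to 42.3 CPM. As with HMGCS1, the pair lay above the other 4 libraries in 4 of 4 groups. The share of all genes with this order was not counted.

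A test of the replicate number across all genes, added after these values were seen and comparing all 6 numbers with the groups in the model, gave adjusted p = 0.00386 for HMGCS1 and 0.0222 for SQLE. HMGCS1 was the only 1 of the 13356 genes called at an adjusted p under 0.01, which is 0.00749% of them. Without the libraries in doubt 1.95% of genes were called, and HMGCS1 (adjusted p = 0.000158) and SQLE (adjusted p = 0.00202) were among them. INSIG1 had adjusted p = 0.211 with 24 libraries and 0.028 with 22, and replicates 5 and 6 were its highest in 3 of 4 groups, the exception being growing, where the library labelled growing replicate 4 was higher. The other 5 genes had adjusted p between 0.284 and 0.446 with 24 libraries.

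The cholesterol efflux pumps ABCA1 and ABCG1, both LXR targets and singled out after their values were seen, had the reverse order. The other 4 LXR and efflux genes tested, NR1H2, NR1H3, MYLIP and CYP27A1, did not pass the test of the replicate number, with adjusted p between 0.16 and 0.907 over 22 libraries. ABCA1 was 17.1 and 20.1 CPM in growing replicates 5 and 6 against 37.2 to 57.2 CPM in replicates 1 to 4, and 11.1 and 11.8 CPM against 30.9 to 45.3 CPM in shHMGA1. ABCG1 was 0.609 and 0.87 CPM in growing replicates 5 and 6 against 4.66 to 7.07 CPM, and 0.554 and 0.218 CPM against 3.6 to 4.23 CPM in shHMGA1. In RIS+shHMGA1 both pumps were also lower in replicates 5 and 6. In RIS the libraries overlapped, with ABCA1 at 68.6 and 56.1 CPM against 61.1 to 69.0 CPM and ABCG1 at 4.57 and 5.66 CPM against 4.53 to 9.60 CPM. The ABCG1 overlap came only from the library labelled RIS replicate 2, at 4.53 CPM, and RIS replicates 1, 3 and 4 had 6.33 to 9.60 CPM. The replicate number gave adjusted p = 0.0085 for ABCA1 and 0.00408 for ABCG1 over 22 libraries and reached the threshold for neither over 24. What differed between the numbers was not tested.

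**Figure D2:**
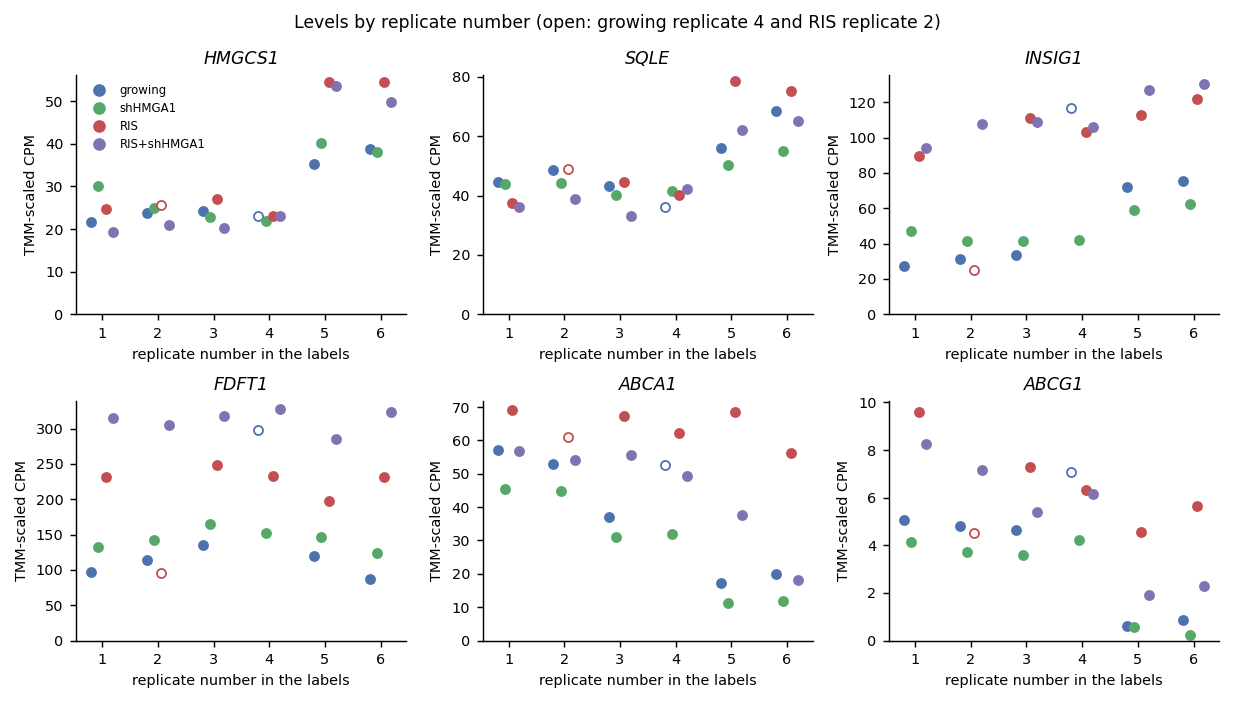
TMM-scaled CPM (vertical axis, from 0) against the replicate number given in the labels (horizontal axis), coloured by group, with the libraries labelled growing replicate 4 and RIS replicate 2 open. In replicates 5 and 6 HMGCS1 and SQLE are higher in all 4 groups, ABCA1 and ABCG1 are lower in 3 of 4 groups, and FDFT1 shows no such order. With the open library set aside, ABCG1 is also lower in RIS.

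The HMGA1 hairpin was compared within each state, to ask whether losing this chromatin protein altered the pathway. In growing cells 0 of the 8 genes were called by edgeR or by DESeq2, where edgeR called 0.27% of genes and DESeq2 98 genes. None of the 8 had an unadjusted p under 0.05, beside 1759 of 13356 genes. Without the libraries in doubt 0 were called, against 2.59% of genes, and 4 of the 8 had an unadjusted p under 0.05, beside 5221 of 13416 genes. Among those were IDI1, 0.52 ± 0.15 (adjusted p = 0.0235), and FDFT1, 0.38 ± 0.10 (adjusted p = 0.0201), both higher in shHMGA1 than in the other 5 growing libraries. The remaining pair was lower, LSS at -0.39 ± 0.14 (adjusted p = 0.0498) and DHCR7 at -0.44 ± 0.18 (adjusted p = 0.0819).

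In senescent cells 0 of the 8 were called in RIS+shHMGA1 against RIS by edgeR, where 2.55% of genes were called. An unadjusted p under 0.05 was found for 4 of the 8, beside 6647 of 13356 genes, and DESeq2 called 1 of the 8 and 1569 genes in all. IDI1 came nearest, at 0.79 ± 0.23 (adjusted p = 0.0195), with all 6 RIS+shHMGA1 libraries above all 6 RIS libraries. Without the libraries in doubt IDI1 was called higher, 0.65 ± 0.15 (adjusted p = 0.00296), the only call among the 8, against 12.5% of genes. FDFT1 was 0.60 ± 0.24 (adjusted p = 0.0506) with 24 libraries and 0.45 ± 0.10 (adjusted p = 0.00306) with 22, under the fold-change threshold, again with no overlap between the groups. SREBF2 had adjusted p = 0.0341 over 24 libraries (-0.58 ± 0.20) and 0.0302 over 22 (-0.44 ± 0.16). For INSIG1 the difference was 0.26 ± 0.32 (adjusted p = 0.521) with all libraries and 0.06 ± 0.21 (adjusted p = 0.828) without those in doubt, and its libraries overlapped.

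Across both changes, RIS+shHMGA1 against growing, IDI1 (1.20 ± 0.24, adjusted p = 0.000352) and FDFT1 (1.14 ± 0.24, adjusted p = 0.00052) were called higher and SREBF2 (-0.78 ± 0.20, adjusted p = 0.00232) lower. That is 2 of 8 higher against 22% of genes, and 1 of 8 lower against 23.9%. Without the library labelled growing replicate 4 and the library labelled RIS replicate 2 the calls were INSIG1, IDI1 and FDFT1 higher, against 28.3% of genes, and DHCR7 (-0.69 ± 0.19, adjusted p = 0.00171) and SREBF2 (-0.91 ± 0.16, adjusted p = 1.35e-05) lower, against 28.5%. LSS had adjusted p = 0.00376 there but a log2 fold change of -0.47 ± 0.14, under the fold-change threshold. This comparison shares its growing and RIS+shHMGA1 libraries with the others.

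Whether RAS acted differently in hairpin and vector cells was asked with an interaction term. It called 0 of the 8 genes by edgeR and by DESeq2, where edgeR called 0% of genes with 24 libraries and 0.00745% with 22. DESeq2 called 4 genes in all over 24 libraries. None of the 8 had an unadjusted p under 0.05, beside 1371 of 13356 genes with 24 libraries and 512 of 13416 with 22. The largest interaction was that of FDFT1, 0.58 ± 0.33 (adjusted p = 0.427), which was 0.07 ± 0.15 without the libraries in doubt. A call in hairpin cells and none in vector cells is therefore not shown to be a difference in the response to RAS.

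**Figure D3:**
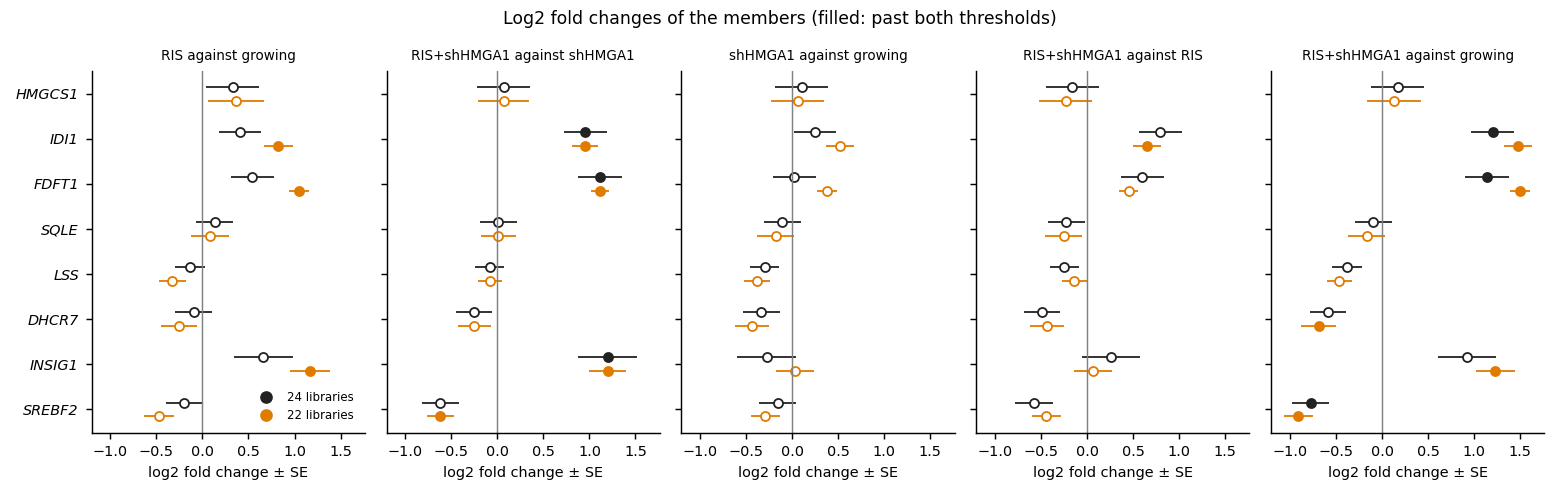
Log2 fold change with its standard error (horizontal axis) of the 8 genes in 5 comparisons, from 24 libraries (black) or from 22 without the libraries labelled growing replicate 4 and RIS replicate 2 (orange), filled where both thresholds are passed. INSIG1, FDFT1 and IDI1 are filled in RIS+shHMGA1 against shHMGA1 in both fits and in RIS against growing only in orange.

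Per kilobase of the canonical transcript, and over the 22 libraries, FDFT1 was the most abundant of the 8 in every group, with a median from 56.1 CPM per kb in growing to 156 CPM per kb in RIS+shHMGA1. HMGCS1 was the least abundant in every group, with a median from 4.11 CPM per kb in RIS+shHMGA1 to 5.15 CPM per kb in shHMGA1. INSIG1 changed place in the order, being below SQLE, LSS, SREBF2, IDI1 and DHCR7 in growing, with a median level of 11.6 CPM per kb against 15.4 to 21.9 CPM per kb, and above SQLE, LSS, SREBF2 and DHCR7 in RIS, at 38.2 against 10.8 to 16.7 CPM per kb. In growing cells these 6 genes overlapped in range, and their order there does not stand out from the spread. The level per kilobase assumes that reads come from the canonical transcript.

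Across libraries, some of the 8 genes varied closely together. The correlations are descriptions over the 22 libraries that match their labels, which share groups and replicate numbers. HMGCS1 and SQLE had a Pearson r of 0.92, and of 0.95 after subtracting group means. LSS, DHCR7 and SREBF2 had r between 0.79 and 0.84, and between 0.78 and 0.83 after subtracting group means. IDI1 and FDFT1 had r = 0.91, which fell to 0.46 within groups. INSIG1 was nearest to IDI1 (r = 0.80) across groups and to HMGCS1 (r = 0.65) within them. SREBF2 ran against IDI1 at r = -0.88 and at -0.65 within groups. LSS also ran against IDI1, at r = -0.73 and at -0.82 within groups, as did DHCR7, at -0.66 and -0.47.

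**Figure D4:**
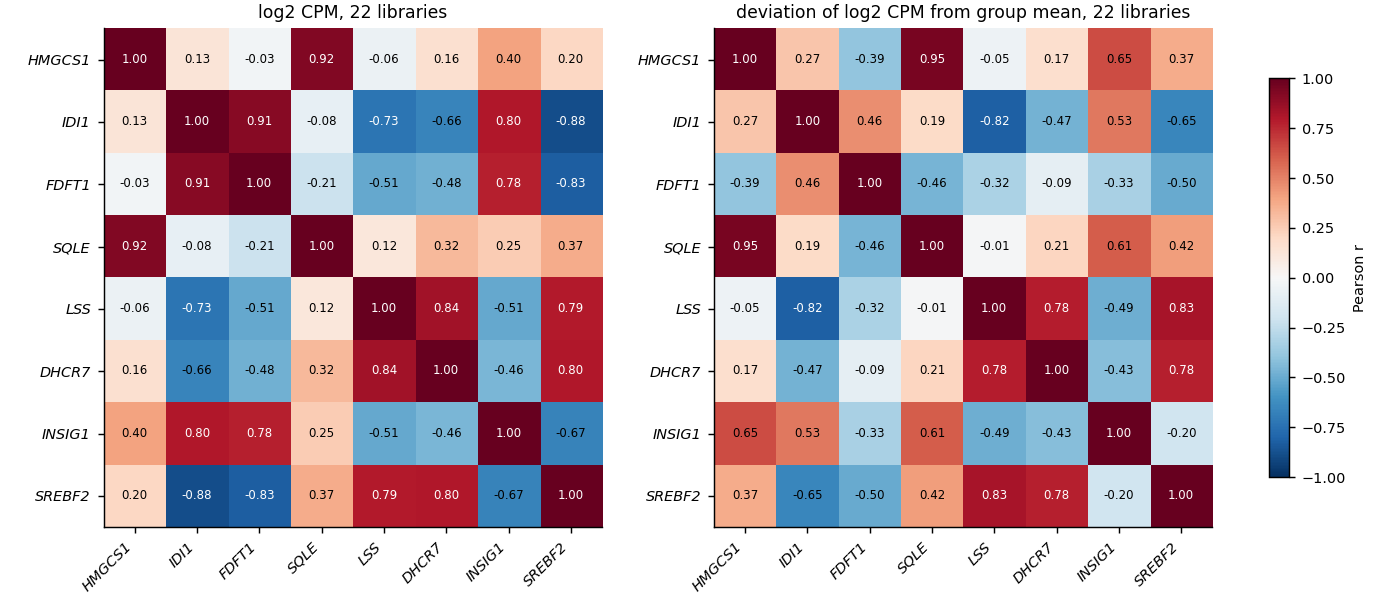
Pearson r between each pair of the 8 genes over 22 libraries, on log2 CPM (left) and on deviations from group means (right), coloured from -1 (blue) to 1 (red). The pair of HMGCS1 and SQLE is at 0.92 and 0.95, while the pair of IDI1 and FDFT1 goes from 0.91 to 0.46.

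The other genes of the pathway, from lists chosen with earlier results of these data known, were also mixed in RIS+shHMGA1 against shHMGA1. There 19.6% of the 13356 genes tested were called higher and 19.5% lower. The counts of every list in this comparison are therefore only described. Of 13 other mevalonate and sterol enzymes, 3 rose, 1 fell and 9 did not pass, with a median log2 fold change of -0.18 against -0.02 over all genes tested. NSDHL, a sterol dehydrogenase, rose by 1.14 ± 0.21 (adjusted p = 0.000314), from a median of 34.5 to 76.0 CPM. MSMO1, a sterol methyl oxidase, rose by 1.01 ± 0.24 (adjusted p = 0.0017), from a median of 78.7 to 155 CPM. HSD17B7, which reduces the sterol keto group, rose by 0.81 ± 0.24 (adjusted p = 0.00578) at a low level of 5.25 and 8.99 CPM. These 3 act together in removing the sterol methyl groups. The single gene that fell, MVK, mevalonate kinase, changed by -0.69 ± 0.20 (adjusted p = 0.00617). In RIS+shHMGA1 against RIS, 2 of the 13 were called higher and 0 lower, with all libraries and without those in doubt. Of all genes tested, 236 of 13356 were called higher with 24 libraries and 1342 of 13416 with 22. HSD17B7 had 1.19 ± 0.24 (adjusted p = 0.00493) with 24 libraries and 1.04 ± 0.17 (adjusted p = 0.000439) with 22. SC5D, a sterol desaturase, had 0.83 ± 0.15 (adjusted p = 0.00235) and 0.78 ± 0.15 (adjusted p = 0.00114). In the other lists no gene was called in this comparison with 24 libraries. With 22, FNTA of 10 non-sterol isoprenoid genes was called higher, as were NPC2, LIPA and TMEM97 of 8 sterol transport and storage genes. HSD17B7 was also called higher in shHMGA1 against growing with 22 libraries, 1 of the 13, where 2.59% of genes were called.

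Of 5 genes of SREBP processing, 1 rose, none fell and 4 did not pass, with a median of -0.30. The gene that rose was INSIG2, the partner of INSIG1 in holding SREBP back, at 0.70 ± 0.16 (adjusted p = 0.00122). SREBF1, which encodes the form that drives fatty acid synthesis, had -0.46 ± 0.18 (adjusted p = 0.0349), and MBTPS1, the first protease of SREBP cleavage, had -0.42 ± 0.14 (adjusted p = 0.0156). Of 9 genes of fatty acid synthesis, 1 rose, 1 fell and 7 did not pass, with a median of 0.06. FADS2, a fatty acid desaturase, fell by 1.47 ± 0.34 on the log2 scale (adjusted p = 0.00119), from a median of 116 to 39.4 CPM. LPIN1, a phosphatidate phosphatase, rose by 0.60 ± 0.13 (adjusted p = 0.000717), and ELOVL6, a fatty acid elongase, had 0.48 ± 0.13 (adjusted p = 0.00368), under the fold-change threshold.

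Of 10 genes of the non-sterol isoprenoid branch, which attaches isoprenoids to proteins such as RAS or builds other lipids, 2 rose, 1 fell and 7 did not pass, with a median of 0.03. FNTA, the shared subunit of the enzymes that prenylate proteins, rose by 1.32 ± 0.32 (adjusted p = 0.00166), from a median of 56.7 to 154 CPM. GGPS1, which makes geranylgeranyl diphosphate, rose by 0.62 ± 0.19 (adjusted p = 0.00874). ICMT, the methyltransferase that finishes prenylated proteins, changed by -1.09 ± 0.23 (adjusted p = 0.000703).

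Of 8 genes of sterol transport and storage, 3 rose, none fell and 5 did not pass, with a median of 0.30. NPC2, which carries cholesterol inside the lysosome, rose by 1.24 ± 0.30 (adjusted p = 0.00184), from a median of 99.2 to 242 CPM. STARD4, a cytosolic sterol carrier, rose by 0.96 ± 0.23 (adjusted p = 0.0016), and TMEM97, a sterol-responsive membrane protein, by 0.87 ± 0.25 (adjusted p = 0.00468). Of 7 LXR and efflux genes, 6 were tested and none passed, with a median of 0.50. ABCG1 had 0.93 ± 0.55 (adjusted p = 0.143), MYLIP, an LXR-induced ubiquitin ligase, had -0.69 ± 0.30 (adjusted p = 0.0455), and ABCA1 had 0.63 ± 0.34 (adjusted p = 0.111).

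**Figure D5:**
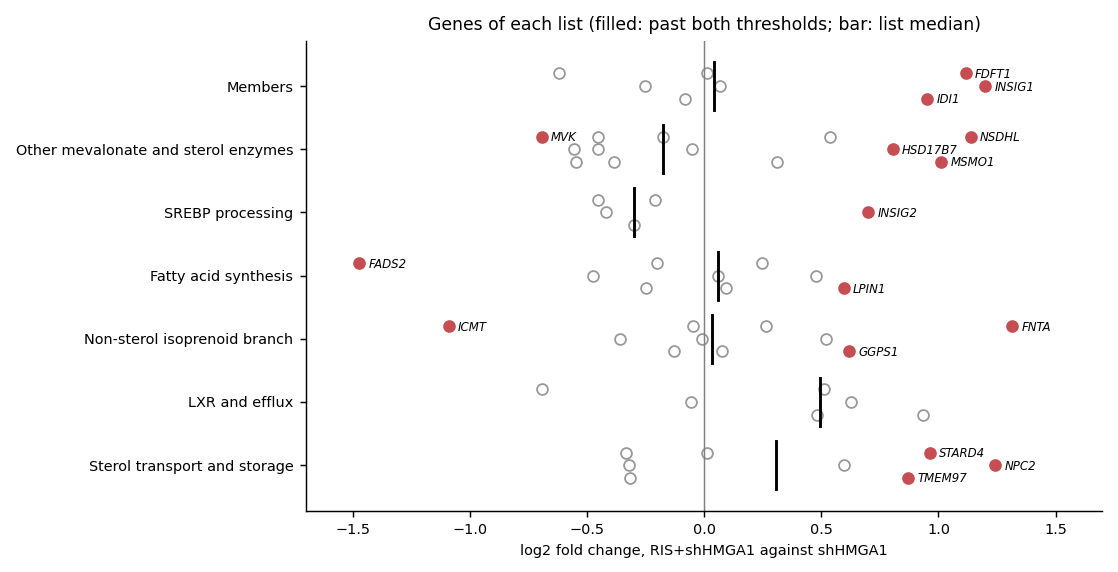
Log2 fold change in RIS+shHMGA1 against shHMGA1 (horizontal axis) of the 8 genes (Members) and of each list of related genes, filled and named where both thresholds are passed, with a bar at the list median. Each list but the LXR and efflux genes holds at least 1 gene past the thresholds, and 3 lists hold genes in both directions. Of all genes tested, 19.6% were called higher and 19.5% lower.

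In RIS against growing, without the libraries in doubt, the same enzyme list held 2 genes called higher, MSMO1 and NSDHL, and 3 called lower, MVK, PMVK and EBP, where 19.2% of all genes were called higher and 20.5% lower. FADS2 (-1.49 ± 0.18, adjusted p = 2.19e-07), FNTA (1.18 ± 0.16, adjusted p = 1.19e-06), ICMT (-1.06 ± 0.10, adjusted p = 6.65e-09) and NPC2 (1.20 ± 0.18, adjusted p = 3.99e-06) were called there in the direction seen in hairpin cells, as was LPIN1. HSD17B7, INSIG2, GGPS1, STARD4 and TMEM97, called in hairpin cells, were not called there, with log2 fold changes between 0.40 and 0.54. NUS1, PMVK, EBP and NR1H3, which is an LXR receptor, were called there and not in hairpin cells, and the interaction term called none of these genes with 24 or with 22 libraries. With all 24 libraries none of the genes of the lists was called in RIS against growing, since no gene was.

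The genes outside the list that most resembled the mean of the 8 (each standardised on log2 CPM) over 24 libraries were CD82 (r = 0.85), TERF2IP (r = 0.85), ZNF697 (r = 0.84), PITPNA (r = 0.84), METTL16 (r = 0.82), SLC25A44 (r = 0.82), UTP3 (r = 0.82) and FZD8 (r = 0.82). On deviations from group means they were TNFRSF10B (r = 0.86), PDCD7 (r = 0.85), HARS1 (r = 0.85), CD82 (r = 0.84), IRGQ (r = 0.84), SLC20A1 (r = 0.83), ZNF697 (r = 0.83) and PDIA4 (r = 0.81). CD82 and ZNF697 appeared in both. The mean of the 8 joins genes that moved in opposite directions, and these likenesses are descriptions with no test. Both rankings include the libraries labelled growing replicate 4 and RIS replicate 2, and their deviations from the labelled group enter the second. Likeness was not computed over 22 libraries.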

How the data were processed

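The authors sequenced poly(A) RNA of 24 libraries (TruSeq Stranded mRNA, HiSeq-2500), mapped reads to hg19 with STAR 2.5.0b, removed reads of low mapping quality and adapters (Cutadapt 1.10.0), and deposited raw counts per Entrez gene made with Rsubread. Its version, annotation and strand setting are not given in the sources used here. Symbols were found for 23696 of 25702 IDs in a RefSeq table. Counts were filtered by expression in the groups, scaled by TMM and tested in edgeR 4.0.16 (R 4.3.3) by the quasi-likelihood test over all 24 libraries, with no block. A call required a Benjamini-Hochberg adjusted p under 0.01 and a log2 fold change over 0.58 in size. DESeq2 1.42.0, other filters and scaling, a replicate block and left-out libraries were alternatives. The 8 genes and the lists were chosen with earlier results of these data known. Of each list, the 3 genes with the largest change in RIS+shHMGA1 against shHMGA1 are named. MVK, SC5D, PMVK, EBP, LIPA, NUS1, NR1H2, NR1H3, CYP27A1 and the efflux pumps by replicate number were added after their values were seen. Log2 CPM used a prior count of 2, and likeness was computed for genes of mean log2 CPM of at least 2.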

Additional observations from a re-analysis of the deposited data

Results flagged for a closer look

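Within groups of 6 libraries, a single library stood apart from the rest (Dixon's test on log2 CPM) in 3 of the 32 combinations of gene and group, where chance gives about 1 in 20. The library labelled RIS replicate 2 was the lowest for INSIG1, with a gap of 0.805 of the group's range, and for FDFT1, with a gap of 0.761. FDFT1 was highest in the library labelled growing replicate 4, with a gap of 0.640. These are the libraries whose proliferation and cytokine markers went against their labels.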

How the results depend on the processing

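Over the alternatives, 1755 of 1864 log2 fold changes of single genes kept direction and call, 46 gained a call, 8 lost one and 55 changed sign, the last among genes that were not called. In RIS against growing the number of the 8 called was 0, was 0 to 3 over fits that left libraries out (2 without the library labelled growing replicate 4 alone and 1 without replicate 4 of every group), and was 3 with both libraries in doubt left out, also with the replicate block or DESeq2. In RIS+shHMGA1 against shHMGA1 it was 3, was 4 (SREBF2 added) with DESeq2, with the replicate block, with only the samples compared or at an adjusted p under 0.05, and was 1 to 4 over left-out libraries, falling to 1, FDFT1, only without replicate 3 of every group. In RIS+shHMGA1 against RIS it was 0, 0 to 2 over left-out libraries (2 without the library labelled growing replicate 4), and 1 at an adjusted p under 0.05, with DESeq2, with the replicate block, or with either after leaving out both libraries. In RIS+shHMGA1 against growing it was 3, 2 to 5 over left-out libraries (5 without the library labelled growing replicate 4), 5 at an adjusted p under 0.05, and 5 with the replicate block or DESeq2 after leaving out both. The cause of these shifts was not tested.

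The replicate numbers were not taken as pairs in the main fit. Of same-numbered pairs, 24 of 36 correlated above 0.1, the lowest was -0.594, and 10 of 24 libraries correlated best with their own number. The mean correlation was 0.175 for the same number and -0.0496 for different numbers. The errors given above come from fits without the block and so include any spread between numbers. With the block HMGCS1 in RIS against growing was 0.26 ± 0.12 (adjusted p = 0.121). Without the libraries in doubt it was 0.32 ± 0.14 (adjusted p = 0.0467), and it was called in neither. With the replicate block, in RIS+shHMGA1 against shHMGA1, HMGCS1 was -0.026 and SQLE -0.031 (-0.018 and -0.029 without the libraries in doubt), and SREBF2 was called. Without both libraries the block put INSIG1 in shHMGA1 against growing at 0.12 and its interaction at -0.019. SQLE in RIS+shHMGA1 against shHMGA1 was -0.0060 with no filter and -0.0060 with only those samples. DESeq2 without both libraries gave 0.029 for INSIG1 in shHMGA1 against growing and 0.00098 for the interaction of DHCR7.

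Over left-out libraries the log2 fold changes that changed sign ranged as follows. In RIS against growing SQLE ran from -0.0043 to 0.25, LSS from -0.33 to 0.063, DHCR7 from -0.26 to 0.065 and SREBF2 from -0.47 to 0.0053. In RIS+shHMGA1 against shHMGA1 HMGCS1 ran from -0.16 to 0.17 and SQLE from -0.11 to 0.093. In shHMGA1 against growing HMGCS1 ran from -0.0075 to 0.22, FDFT1 from -0.087 to 0.38, SQLE from -0.18 to 0.0074 and INSIG1 from -0.43 to 0.044. HMGCS1 ran from -0.39 to 0.0096 in RIS+shHMGA1 against RIS and from -0.056 to 0.29 in RIS+shHMGA1 against growing, and SQLE from -0.22 to 0.018 in the latter. The interaction ran from -0.24 to 0.016 for SQLE, -0.10 to 0.25 for LSS and -0.36 to 0.0033 for DHCR7.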
